A study of Danio rerio with 24 samples.

Results

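Ovaries of adult female zebrafish that had been exposed to 3 ppb atrazine as embryos were compared with control ovaries of the same replicate number. The comparison used 10 of the 24 arrays of the series. These were the 5 arrays at 3 ppb and the 5 at 0 ppb that carry replicate numbers 2 to 6. The number, which is also the slide, paired each exposed ovary with its control, and replicate 1 was left out because the spot grid of its slide was misplaced. The choice used labels and the quality of the arrays, not the level of any gene.

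Atrazine was given to the embryos of the series at 0.3, 3 and 30 ppb or not at all, and 6 ovary samples of each of the 4 groups were hybridized in one color. All fish were wild-type AB females, so the groups compared here differ by label only in the exposure, given from 1 to 72 h after fertilization (hpf), after which all were raised in clean water. Ovaries were taken at 5 to 6 months post fertilization (mpf) by the labels, and the methods give a wider range. The methods define replicates as groups started on different days. They speak of tissue from 6 adult females collected among the groups, with n = 6. They do not say that an array holds the RNA of 1 female.

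Atrazine is a herbicide studied as a disruptor of endocrine signaling. The zebrafish ovary holds oocytes of all stages at once, each wrapped in granulosa and theca cells that make steroids under gonadotropin control, within a stroma of fibroblasts, vessels and immune cells. Ovarian macrophages clear degenerating follicles and the remains of ovulated ones, and they carry complement C1q, antigen presenting proteins and lysosomal proteins. In RNA of whole tissue, a lower level of a transcript in each cell and fewer cells that carry it cannot be told apart.

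Each value given here is a log2 level, the log2 intensity of the probes of a target minus the 75th percentile of all spots of that array, so that a negative level lies below that percentile. The 75th percentile was 1251 to 2245 intensity units on the control arrays and 1053 to 1812 on the 3 ppb arrays. Between 68.8% and 87.2% of probes were well above background on the control arrays, and between 68.3% and 85.4% on 4 of the 3 ppb arrays. Replicate 6 at 3 ppb was the exception, with 40.6% of probes well above background and 10.4% of spots marked as outliers. Its 75th percentile of 1255 was within the range of the other 3 ppb arrays. Several dim genes had their highest 3 ppb level on that array. For vip it was -4.01 against -7.27 to -4.98 on the other 3 ppb arrays, and for fsta -3.97 against -5.31 to -4.64. Differences of dim genes in pair 6 carry that limit. The median correlation of an array with the other 9 arrays ranged from 0.91 to 0.96. The egg coat gene zp2.5, an oocyte marker, was at 7.94 to 8.41 in controls and 8.24 to 8.77 at 3 ppb. The array position on a slide was the same for a given dose throughout, so that its part in a difference cannot be told apart from that of the exposure.

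After adjustment over all targets, no transcript passed the test between 3 ppb and control ovaries. Of 63370 targets tested in the paired limma fit, 0 (0%) passed an adjusted p of 0.05 with a difference of 1.5-fold, and the smallest adjusted p was 0.158. At an unadjusted p under 0.05 and the same size of difference, 2219 targets (3.5%) were higher at 3 ppb and 1237 (1.95%) were lower, and 4776 targets had such a p at any size. Counts at an unadjusted p in the following all include the 1.5-fold threshold. By the test over the 4 groups followed by Tukey's test that the methods name, without adjustment, 71 targets were higher and 34 lower. Thus no gene named in the following passed the adjusted test, and each is described by its values, its order in the ranking and the number of pairs that shared its direction.

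The differences leaned upward. The median difference over all targets was 0.04 on the log2 scale, 55.9% of differences were positive, and of the 3456 targets past an unadjusted p of 0.05 with the 1.5-fold threshold 64.2% were higher at 3 ppb. The median was 0.01 without replicate 6 and 0.07 without replicate 5. That share depended on the scaling of the arrays. It was 50.9% after quantile normalization, 88.1% when arrays were scaled to their median, which moved the median of all targets to 0.17, and 86.8% after normexp background correction. Among the 13044 targets with a gene symbol, 455 were higher and 80 lower at an unadjusted p. Counting the targets measured in every pair, 5.34% were higher at 3 ppb in 5 of 5 pairs and 4.23% lower. The 5 pairs had little in common over all targets, as the correlations across targets between the differences of any 2 pairs ran from -0.25 to 0.22.

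**Figure D1:**
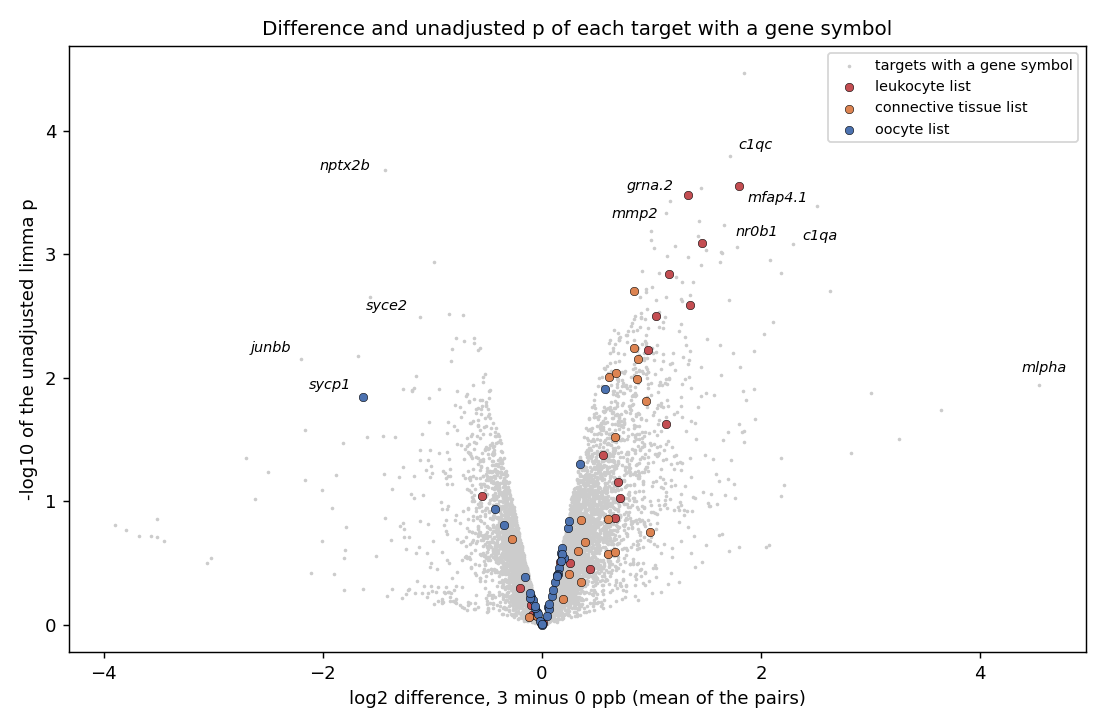
Log2 difference (3 minus 0 ppb, horizontal axis) and -log10 of the unadjusted limma p (vertical axis) of each target with a gene symbol. Colored points are members of the leukocyte list, the oocyte list and the list of adipose and connective tissue genes. Leukocyte genes such as mfap4.1 (1.80) and grna.2 (1.34) lie at the upper right, oocyte genes lie near 0 except sycp1 (-1.63), and no point passed the adjusted test.

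Several transcripts of macrophages and other leukocytes were higher at 3 ppb in every pair. The 3 chains of complement C1q, which macrophages secrete, were higher in all 5 pairs, and c1qc was first by p among genes that were higher in every pair and well above background on all arrays of a group. The macrophage gene mfap4.1 was second in that ranking, in which mfap4.1 and grna.2 of the first 10 were on the leukocyte list examined here. Both granulin genes, the leukocyte actin bundling gene lcp1 and the lysosomal gene laptm5 of blood cell lineages had differences in the same direction in every pair.

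In control replicates 2 to 6, c1qc had levels of -1.49, 0.30, 0.30, -1.16 and -1.82. In the 3 ppb ovaries of the same numbers it had levels of 0.06, 1.2, 2.28, 0.91 and 0.24. Each exposed ovary was above its own control, but the lowest exposed ovaries were below the highest controls. The paired difference of c1qc was 1.71 ± 0.22 (SE, n = 5 pairs), or 3.28-fold, with an adjusted p of 0.633 in limma. The adjusted p of most leading genes was the same 0.633, since the adjustment gives neighboring ranks 1 value.

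For c1qa, levels were -4.53, -2.79, -2.59, -5.09 and -4.79 in controls and -2.97, -1.52, -0.05, -1.14 and -2.66 at 3 ppb. Its difference of 2.29 ± 0.39 (SE, n = 5) was the greatest of the C1q chains, and the widest gap was in pair 5. For c1qb, levels were -1.91, 0.02, -0.34, -2.5 and -1.47 in controls and -1.20, 0.40, 1.79, 0.50 and 0.45 at 3 ppb, a difference of 1.63 ± 0.40. Pairs 2 and 3 were the smallest for this chain, at 0.71 and 0.38. Thus the 3 subunits of the C1q molecule shared a direction in all pairs while the size of the gap varied between pairs.

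The gene mfap4.1, a marker of macrophages in zebrafish, had control levels of -4.04, -2.80, -1.45, -2.75 and -3.13. At 3 ppb its levels were -2.37, -1.08, 1.30, -0.94 and -2.10, with a difference of 1.80 ± 0.26. Replicate 4 at 3 ppb stood above the other exposed ovaries for this gene, and the control of replicate 4 was also the highest control. For lcp1 the levels ran from -3.83 to -2.26 in controls and from -2.46 to -0.10 at 3 ppb, a difference of 1.46 ± 0.25. For laptm5 they ran from -2.81 to -0.59 and from -0.97 to 1.29, a difference of 1.78 ± 0.31. Both genes overlapped between the groups and were higher in 5 of 5 pairs.

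Granulin genes encode a secreted growth factor that is abundant in myeloid cells. The copy grna.2 had control levels of -1.42, -0.91, -0.90, -1.41 and -2.22 and 3 ppb levels of -0.07, 0.25, 1.05, -0.56 and -0.85, a difference of 1.34 ± 0.20. Its groups did not overlap, which held for 0.423% of targets in this direction. The neighboring copy grna.1 differed by 1.35 ± 0.29 with overlapping groups, and probes of such similar copies may share signal.

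**Figure D2:**
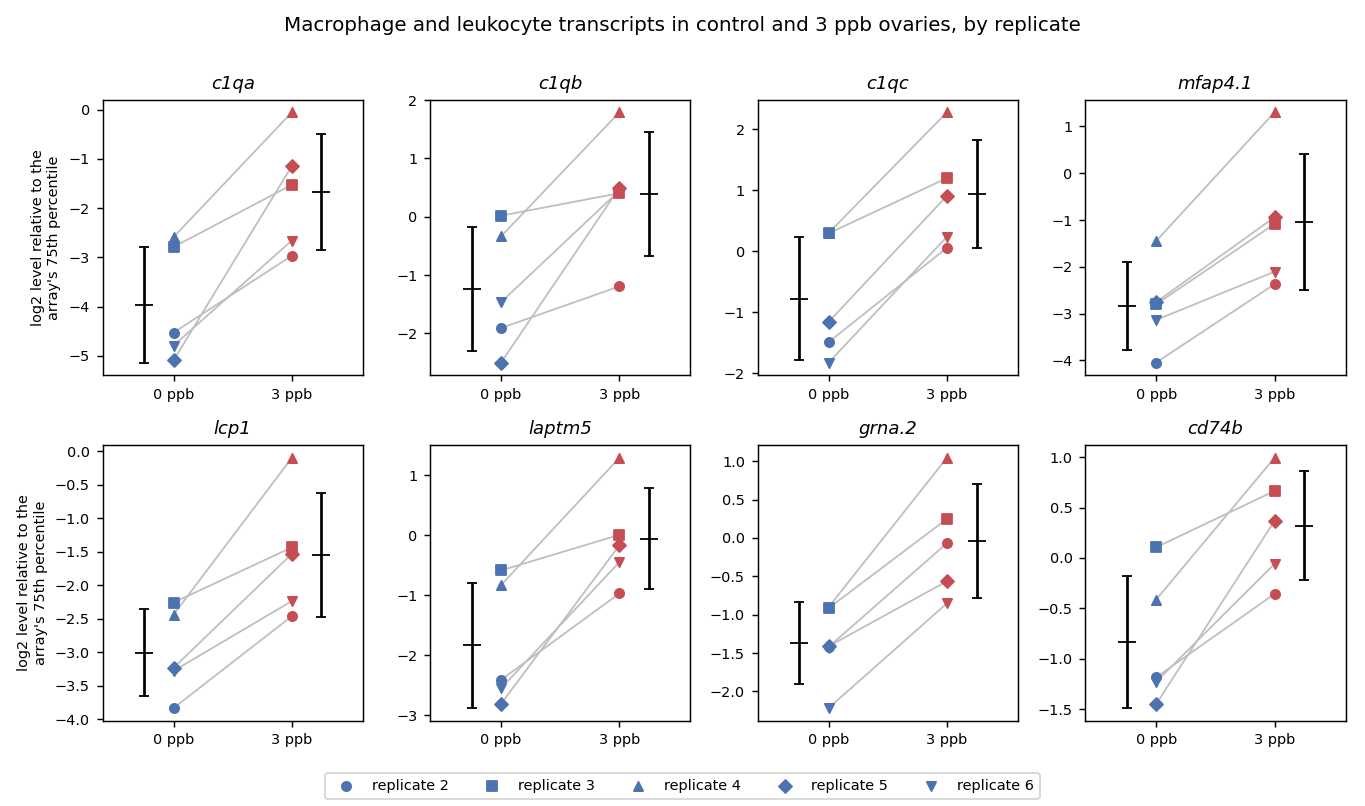
Log2 level relative to the array's 75th percentile (vertical axis) of 8 macrophage and leukocyte genes in the 0 and 3 ppb ovaries of replicates 2 to 6, with gray lines joining a pair and black bars giving the mean and SD of each group. Every line goes up from 0 to 3 ppb, and the groups overlap for all panels except grna.2.

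Over the leukocyte list, 24 genes were listed and 19 were tested as 20 targets. Like the other lists, it was chosen with earlier results of these data known, so its counts are not an independent test. None passed the adjusted test, and 16 of the 20 differences were positive with a median of 0.68, against 0.04 over all targets. At an unadjusted p, 8 of 20 were higher and 0 lower, beside 3.5% and 1.95% of all targets, and 7 were higher in 5 of 5 pairs. Members of the lists all have a gene symbol, and such targets leaned upward more than all targets did. Of 13044, 8240 had positive differences with a median of 0.07, and 455 were higher and 80 lower at an unadjusted p. The median of the list was positive within each pair, at 0.64, 0.20, 1.12, 0.87 and 0.58 for pairs 2 to 6. It was 0.41 without replicate 4, whose exposed ovary had the highest levels of most of these genes, and 0.78 without replicate 6. The linear levels of the list were also summed, a sum in which the brightest members weigh most. The log2 of this sum was 2.1 to 3.02 in controls and 2.75 to 4.17 at 3 ppb.

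Values varied among the members of the list. The macrophage gene mpeg1.1 was higher by 1.13 ± 0.39 in 4 of 5 pairs, and csf1ra, the receptor of a macrophage growth factor, by 0.67 ± 0.39 in 4 of 5. The myeloid transcription factors irf8 and spi1b were higher by 0.56 ± 0.22 and 0.70 ± 0.32, each in 4 of 5 pairs. The actin regulator coro1a, found in leukocytes generally, was higher by 0.97 ± 0.24 in all pairs. The neutrophil peroxidase mpx had a difference of 0.71 ± 0.36 in 3 of 5 pairs, and lyz, the lysozyme of neutrophils and macrophages, of -0.20 ± 0.29. The T cell kinase lck had differences of 0.16 and 0.26 in its 2 targets, and the helper T cell gene cd4-1 of -0.10. The inflammatory cytokine il1b had a negative difference of -0.54 ± 0.27 and was lower in 4 of 5 pairs. The listed genes mpeg1.2, ccl34b.1 and il2rga were also tested. Their differences lay below the median of the list and are not given one by one.

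Genes of antigen presentation were examined as a list added after the values had been seen. The invariant chain genes cd74a and cd74b, which guide class II molecules to the endosome, were higher by 1.04 ± 0.23 and 1.16 ± 0.22, each in 5 of 5 pairs. Both were also counted among the leukocyte genes. The class I light chain b2m was tested as 2 targets. The one with the smaller p had control levels of 0.56, 1.29, 1.51, 0.70 and 1.02 and 3 ppb levels of 2.00, 2.12, 2.19, 1.69 and 2.07. Its groups did not overlap, as for 0.423% of all targets in this direction, and the difference was 1.00 ± 0.17. It was the only target of the list with such groups, so the second b2m target did not share this. The related gene b2ml was higher by 0.71 ± 0.17 and the immunoproteasome subunit psmb8a by 0.66 ± 0.16, both in 5 of 5 pairs. The other 14 of the 19 genes tested had differences from -0.35 to 0.74, and the median over all 20 targets, of which 2 belong to b2m, was 0.26.

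Lysosome and complement genes were also read as lists added after the values had been seen. On the list of cathepsin and lysosome genes, 4 of 28 targets were higher at an unadjusted p (laptm5, grna.1, grna.2 and cd63), beside 3.5% of all targets. Of these, grna.1 and grna.2 are also on the leukocyte list. The median of the lysosome list was 0.19, or 0.12 without replicate 6. On the complement list, 4 of 21 were higher, namely the 3 chains of C1q and cfd, the protease that starts the alternative pathway, which differed by 0.89 ± 0.24. Most other complement genes are made mainly by liver, and the pair medians of the whole complement list were 3.35, -0.80, -0.03, 0.83 and -1.18, each of the same sign as the median of the liver markers in that pair. The median of the complement list was 0.62, but -0.13 without replicate 2 and 0.17 without replicate 5. Smallest of all by p among targets with a symbol was tagapb, named for a GTPase activating protein of T cells, at 1.84 with an adjusted p of 0.455 in limma. It was not well above background on all arrays of either group and is named after its values were seen.

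The list of adipose and connective tissue genes, called the connective tissue list in the following, also leaned upward. It holds collagen, matrix and smooth muscle genes, and also fat, vessel and keratin genes. Of 27 genes listed, 21 were tested as 22 targets, 18 differences were positive and the median was 0.60. The 4 negative differences reached -0.27, and no fat or vessel gene of the list is named below. At an unadjusted p, 8 were higher and 0 lower, beside 3.5% and 1.95% of all targets. The pair medians were 0.84, 0.20, 0.94, 0.41 and 0.42. Without replicate 4 the median was 0.24, and with replicate 1 it was 0.23.

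Collagen I chains made up 3 of the 8. The chain col1a1b had control levels of -0.88, -0.22, -0.28, -1.18 and -0.59 and 3 ppb levels of 0.43, 0.52, 0.64, -0.58 and 0.05. Replicate 5 was lowest in both groups, and the difference was 0.84 ± 0.17 in 5 of 5 pairs. The chain col1a2 was higher by 0.88 ± 0.23 in 5 of 5 pairs and col1a1a by 0.67 ± 0.24 in 4 of 5. The proteoglycan dcn, which binds collagen, was higher by 0.61 ± 0.17 in every pair. The smooth muscle genes acta2 and tagln were higher by 0.84 ± 0.21 and 0.87 ± 0.24 in every pair, and the filament gene vim by 0.68 ± 0.19 with groups that did not overlap. With replicate 1 added, tagln differed by -0.28. The epithelial keratin krt4 was higher by 0.95 ± 0.29 in 4 of 5 pairs. Muscle fiber genes had a median of -0.04 with 9 of 20 differences positive.

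Genes of matrix remodelling and ovulation had a median of 0.37 over 20 targets, of which 18 had positive differences, and the median was 0.19 after quantile normalization. Gelatinase mmp2, which degrades collagen, had control levels of 1.18, 1.59, 1.42, 0.17 and 0.82 and 3 ppb levels of 2.03, 2.5, 3.06, 1.24 and 2.01. Its paired difference was 1.13 ± 0.18, with a range of 0.85 to 1.64 over the pairs. With the replicate 1 pair added, the mean difference of mmp2 was -0.22. The membrane proteases mmp14a and mmp14b, which activate it, were higher by 0.57 ± 0.18 and 0.54 ± 0.18, and the inhibitor timp2a by 0.49 ± 0.21, each in 5 of 5 pairs. The cyclooxygenase ptgs2a, which makes prostaglandins at ovulation, was higher by 1.06 ± 0.31 in all pairs, with gaps of 2.08 in pair 2 and 0.32 in pair 6. The receptor of prostaglandin F, ptgfr, was lower in all pairs, by 0.52 ± 0.16.

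Genes of follicle somatic cells also leaned upward. Over the list of their genes and of regulators of steroid synthesis, 19 of 22 differences were positive with a median of 0.43, which was 0.23 without replicate 4 and 0.23 without replicate 6. At an unadjusted p, 3 were higher and 0 lower, beside 3.5% and 1.95% of all targets. First among them was nr0b1, a nuclear receptor that represses steroidogenic genes, known as DAX1. Its control levels were -4.68, -4.15, -4.45, -4.36 and -3.66, and its 3 ppb levels were -2.67, -2.93, -1.98, -2.53 and -2.87. The groups did not overlap, and the difference of 1.67 ± 0.27 was 3.17-fold. Over 16 alternative ways of processing, nr0b1 differed by 1.22 to 2.2 and its adjusted p in limma ran from 0.102 to 1. The somatic growth factor gsdf was higher by 0.65 ± 0.18 in 5 of 5 pairs and the activin binding follistatin fsta by 0.91 ± 0.32 in 4 of 5. The gonadal growth factor igf3 differed by 0.56 ± 0.27 in 5 of 5 pairs, with 1.69 in pair 4 and 0.06 in pair 5.

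Steroid synthesis genes had a median nearer to that of all targets. Of 19 genes tested, 13 had positive differences, and the median was 0.13, or 0.05 without replicate 4 and 0.22 without replicate 6. At an unadjusted p, 3 were higher and 1 lower, beside 3.5% and 1.95% of all targets. Enzyme hsd11b2, which inactivates cortisol and in fish also makes 11-keto androgens, had control levels of -0.19, -0.67, -0.02, -1.15 and -0.80 and 3 ppb levels of 0.39, 0.30, 1.03, 0.77 and 0.56. Its groups did not overlap and it differed by 1.17 ± 0.22. Ovarian aromatase cyp19a1a, which makes estrogens from androgens, had control levels of 0.08, -0.71, -0.19, -0.76 and -1.21 and 3 ppb levels of 0.37, 0.39, 1.89, -0.18 and -0.41. It was higher by 0.97 ± 0.28 in 5 of 5 pairs, with overlapping groups and the widest gap in pair 4. The brain form cyp19a1b was dim in all ovaries, at -6.93 to -3.99 in controls, and was higher by 0.68 ± 0.22 in 5 of 5 pairs. The carbonyl reductase cbr1l was lower by 0.65 ± 0.26 in 4 of 5 pairs.

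The cholesterol carrier star, which starts steroid synthesis, had control levels of -2.54, -1.92, -2.77, -2.30 and -2.39 and 3 ppb levels of -2.38, -1.35, -0.98, -2.16 and -3.24. The exposed ovaries spread to both sides of the controls, and the difference was 0.36 ± 0.36 with an adjusted p of 0.829 in limma. It was positive in 4 of 5 pairs. The exception was pair 6, at -0.85, with the 3 ppb array that had few probes well above background. Among steroid receptors, 13 of 15 differences were positive with a median of 0.25, and 0 passed an unadjusted p with the fold threshold. The membrane progestin receptor paqr8 differed by 0.51 ± 0.21 and the estrogen receptor esr2b by 0.68 ± 0.31, each in 4 of 5 pairs. The relaxin family hormone insl3, which theca and Leydig cells make and which stood on the testis list, was higher by 1.14 ± 0.32 in 5 of 5 pairs. The median of that list was 0.09, and the sperm tail gene tekt4 was lower in all pairs, by 1.12 ± 0.46.

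Most other genes the study discussed, with their ligands or receptors, had differences within 2 SE of 0. The binding protein crhbp of corticotropin releasing hormone differed by -0.03 ± 0.19, but its 2 probes disagreed, at -0.38 and 0.33. The qPCR of the study, in which crhbp was up, lists another reference sequence than that of this target. The ligand gene crhb differed by 0.79 ± 0.34 in 5 of 5 pairs. The vasoactive intestinal peptide gene vip differed by -0.29 ± 0.69 and was well above background on 4 control arrays and on 1 array at 3 ppb. In pairs 2 to 6 it differed by -1.85, 1.65, -2.15, -0.96 and 1.88, the last with the array that had few probes well above background. The peptide genes adcyap1a and adcyap1b differed by -0.15 ± 0.51 and -0.02 ± 0.17, and the receptor adcyap1r1a by 0.39 ± 0.17 in 5 of 5 pairs. This receptor was dim, and was well above background on 3 control arrays and on 4 at 3 ppb. Probes disagreed here too, from -0.48 to 0.76 over the 7 of adcyap1b and with -0.11 and 0.90 for the 2 of adcyap1r1a. Like vip, adcyap1a was well above background on 1 array at 3 ppb. It differed by 1.94 in pair 6 and by -1.86 to 0.25 in the other pairs. The receptors vipr2, vipr1b and crhr2 differed by -0.52 ± 0.29, 0.23 ± 0.24 and 0.04 ± 0.18. The gonadotropin releasing hormone genes gnrh2 and gnrh3 differed by 0.06 ± 0.20 and -0.18 ± 0.35. Over the 14 genes tested the median was 0.05, and the adjusted p in limma was 0.633 or more for each. The list has 22 genes, and cyp1b1 was on the array but too dim to be tested. The gene vipb was on the array and was also not tested. No target was matched by symbol to ace and hpgd, which the study named, or to several of the partner genes.

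**Figure D3:**
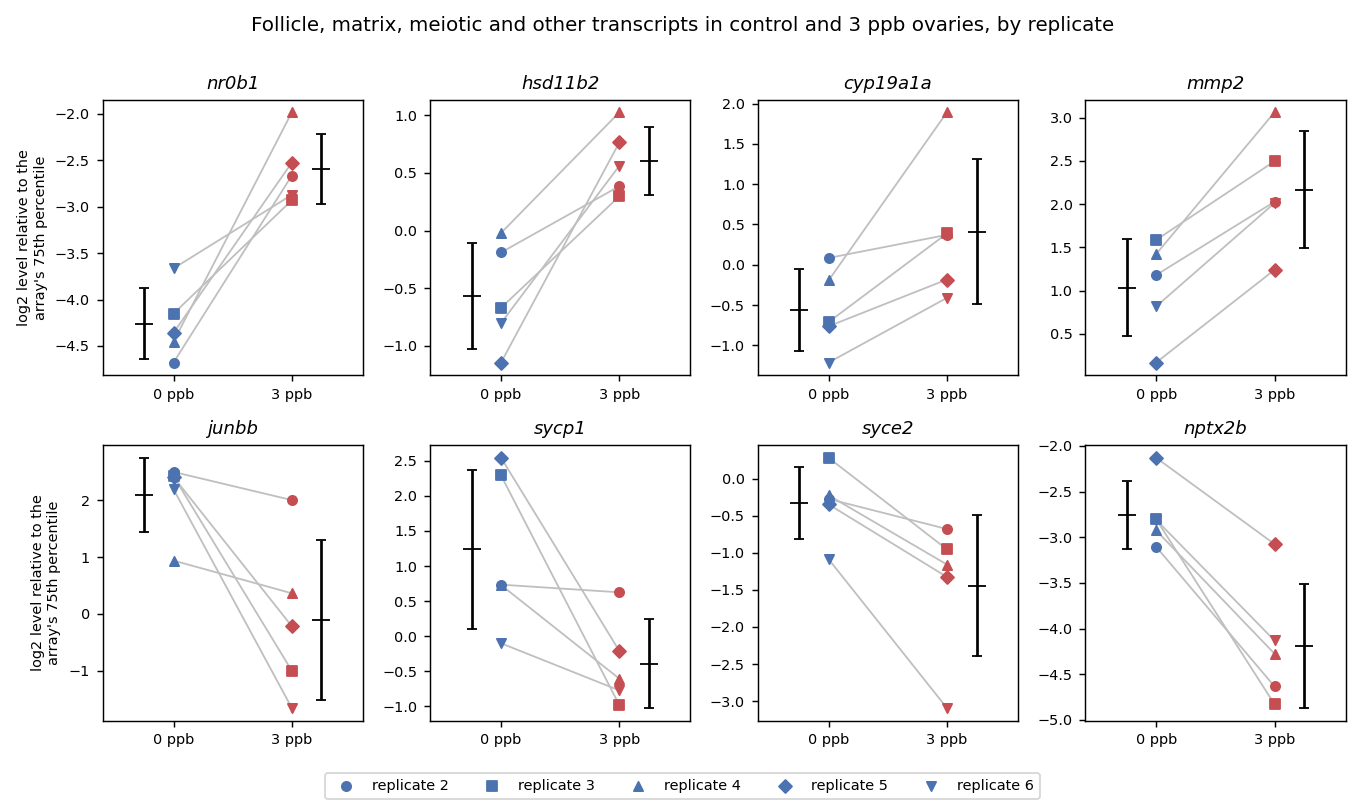
Log2 level relative to the array's 75th percentile (vertical axis) of 4 genes that were higher (nr0b1, hsd11b2, cyp19a1a, mmp2) and 4 that were lower (junbb, sycp1, syce2, nptx2b) at 3 ppb in every pair, with gray lines joining a pair and black bars giving the mean and SD of each group. The groups of nr0b1 and hsd11b2 do not overlap, while junbb in replicate 2 differs by only -0.50.

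Oocyte genes had a median close to that of all targets. Of 38 targets tested, 22 had positive differences and the median was 0.06, or -0.04 after quantile normalization and between -0.0041 and 0.127 with 1 replicate left out. The egg coat gene zp2.5 was higher by 0.34 ± 0.14 and the histone gene h1-10 by 0.57 ± 0.17, both in 5 of 5 pairs. The exception in the other direction was sycp1, which encodes the transverse filaments of the synaptonemal complex that joins chromosomes in meiotic prophase. In controls it had levels of 0.73, 2.29, 0.73, 2.54 and -0.10, and at 3 ppb of 0.63, -0.98, -0.61, -0.21 and -0.77. All 6 of its probes were lower, by 1.63 ± 0.49 in the mean, but the gap was -0.11 in pair 2 and -3.27 in pair 3.

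The central element gene syce2 of the same complex was also among the 10 leading genes lower at 3 ppb. It had control levels of -0.27, 0.28, -0.22, -0.35 and -1.09 and 3 ppb levels of -0.68, -0.95, -1.16, -1.33 and -3.09, and was lower by 1.11 ± 0.25. The axial element gene sycp3 was lower in 4 of 5 pairs, by 0.34 ± 0.22. By contrast, the recombinase dmc1, which repairs breaks in meiosis, was higher by 0.96 ± 0.25 in 5 of 5 pairs. This gene was dim, with mean levels of -5.42 in controls and -4.47 at 3 ppb, and was well above background on 4 arrays of each group. Its highest 3 ppb level, -3.94, was in replicate 6, the array with few probes well above background. Over a list of 11 tested genes of meiotic prophase, added after the values were seen, differences of any size were positive for 6 and negative for 5, with a median of 0.01. At an unadjusted p, 1 of them was higher and 2 were lower, beside 3.5% and 1.95% of all targets.

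The transcription factor junbb, of the immediate early AP-1 family, had the most negative difference among the genes ranked by size. Control levels were 2.5, 2.43, 0.94, 2.41 and 2.2, and levels at 3 ppb were 2.01, -1.0, 0.36, -0.22 and -1.66. The gaps of pairs 3, 5 and 6 ran from -3.85 to -2.63 and those of pairs 2 and 4 were -0.50 and -0.58, for a mean of -2.2 ± 0.57. Differences of other immediate early genes were smaller. The family member jund was lower by 0.35 ± 0.15 and ier5 by 0.33 ± 0.16, both in all pairs, and the median over 27 genes was 0.04.

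Leading genes beyond these groups had varied functions. Higher in 5 of 5 pairs were serpinf1, a secreted inhibitor of vessel growth, by 1.45 ± 0.21, and the keratin krt15, by 1.43 ± 0.23. Also higher were sla1a, an adaptor of receptor signaling in lymphocytes, by 1.42 ± 0.24, and the noncoding transcript si:dkey-238c7.12, by 1.17 ± 0.17. Lower in 5 of 5 pairs was nptx2b, a neuronal pentraxin, with control levels of -3.11, -2.80, -2.93, -2.13 and -2.81 and 3 ppb levels of -4.63, -4.83, -4.27, -3.07 and -4.13. Its groups overlapped only through replicate 5, and it was lower by 1.43 ± 0.19. The serotonin receptor gene htr5ab was lower by 0.72 ± 0.16, uqcc2, an assembly factor of respiratory complex III, by 0.62 ± 0.15, and tmtc2a by 0.62 ± 0.15. The groups of tmtc2a and zgc:136308 did not overlap, as for 0.219% of targets in this direction. The 5 others in this ranking, zgc:123107, or42c5, zgc:136308, dipk1b and zgc:173517, were lower by 0.71 to 1.57.

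Ranking by size brought up genes whose gaps varied widely between slides. Melanosome transport gene mlpha had control levels of -5.22, -8.51, -7.35, -0.45 and -0.97 and 3 ppb levels of 0.73, -0.98, 0.68, -0.27 and 0.02. Its difference of 4.54 ± 1.30 came from pairs 2, 3 and 4, and it was well above background on 3 control arrays. The acute phase gene saa differed by 2.18 ± 0.88, with 5.64 in pair 2 and 0.13 in pair 5. The forkhead gene foxa differed by 2.08 ± 0.38 and the actin severing gene scinlb by 2.03 ± 0.48, the latter with groups that did not overlap. Among lower genes, tfap2a differed by -1.88 ± 0.83 and zgc:153968 by -1.60 ± 0.58.

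Markers of tissues that an ovary sample may carry were read beside these values. Liver markers varied most. The liver fatty acid binding gene fabp10a had control levels of 0.13, 4.36, 3.26, 4.1 and 5.49 and 3 ppb levels of 6.07, -5.52, -4.00, 4.81 and -3.47. The pair medians over 19 liver genes were 6.61, -5.09, -5.58, 1.87 and -7.28, and 18 of 19 mean differences were negative. Leaving out 1 replicate moved the liver median of -1.27 to between -3.69 and -0.26. Leaving out replicate 2, 2 targets with no gene symbol passed the adjusted test, at -8.48 and -6.98 with an adjusted p of 0.0206 in limma, and in pair 2 they differed by 6.91 and 12.7 in the other direction.

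Red blood cell genes had a median of 0.49 over 14 genes (0.77 without replicate 3), with 12 positive differences. Of the 14, 3 were higher at an unadjusted p, beside 3.5% of all targets. The globin gene hbba2 was higher by 0.87 ± 0.22 and the erythroid factor gata1a by 0.85 ± 0.25, both in 5 of 5 pairs. Their probes disagreed, with -0.0005 and 1.70 for the 2 of gata1a and -0.06 to 1.78 for the 4 of hbba2. At 3 ppb gata1a was well above background on 3 arrays. It was at -3.92 in replicate 6, the array with few probes well above background, against -6.6 to -5.4 in the other 3 ppb ovaries. The globin gene hbaa1 was higher by 1.80 ± 0.61 in 4 of 5 pairs. The pair medians of red cell genes were 1.34, -0.08, 1.26, -0.10 and 0.76, and those of leukocyte genes were 0.64, 0.20, 1.12, 0.87 and 0.58. The part of blood content in the leukocyte values was not tested. Brain genes had a median of 0.02 with 10 of 20 differences positive.

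**Figure D4:**
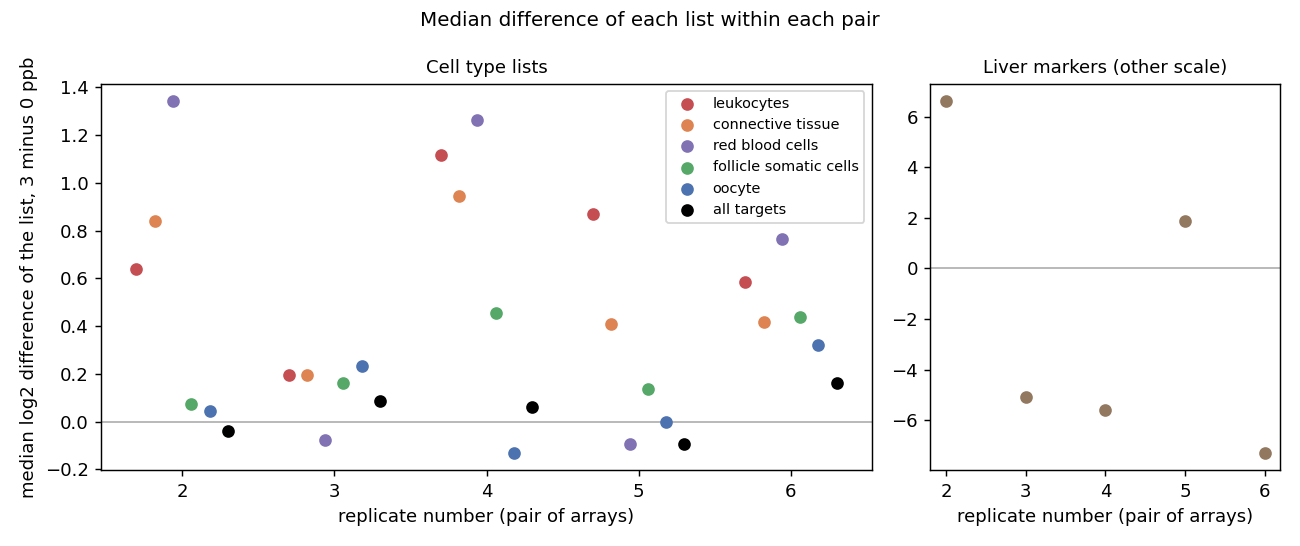
Median log2 difference (3 minus 0 ppb, vertical axis) of each list within each pair of arrays (horizontal axis, replicate number), with the liver markers on a scale of their own at the right. Leukocyte and connective tissue medians lie above 0 in all 5 pairs, with 1.12 and 0.94 in pair 4, while liver medians run from -7.28 to 6.61.

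Stress and hormone response lists had medians close to that of all targets. Over genes of oxidative and heat stress the median was 0.11, with 1 of 28 higher at an unadjusted p, beside 3.5% of all targets. This was the heme degrading enzyme hmox1a, which differed by 0.66 ± 0.21 in 5 of 5 pairs. In the aryl hydrocarbon receptor pathway the median was 0.10, and cyp1c1, a monooxygenase that this receptor induces, was higher by 1.32 ± 0.46 in 4 of 5 pairs. Among 21 apoptosis genes the median was 0.05, and the effector caspase casp6a was lower in all pairs, by 0.69 ± 0.21. Circadian clock, thyroid axis and DNA methylation genes had medians of 0.10, 0.03 and 0.06, with 0 of 27, 0 of 8 and 0 of 12 past an unadjusted p. Leaving out 1 replicate, the medians of these 6 lists lay between -0.07 and 0.17.

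**Figure D5:**
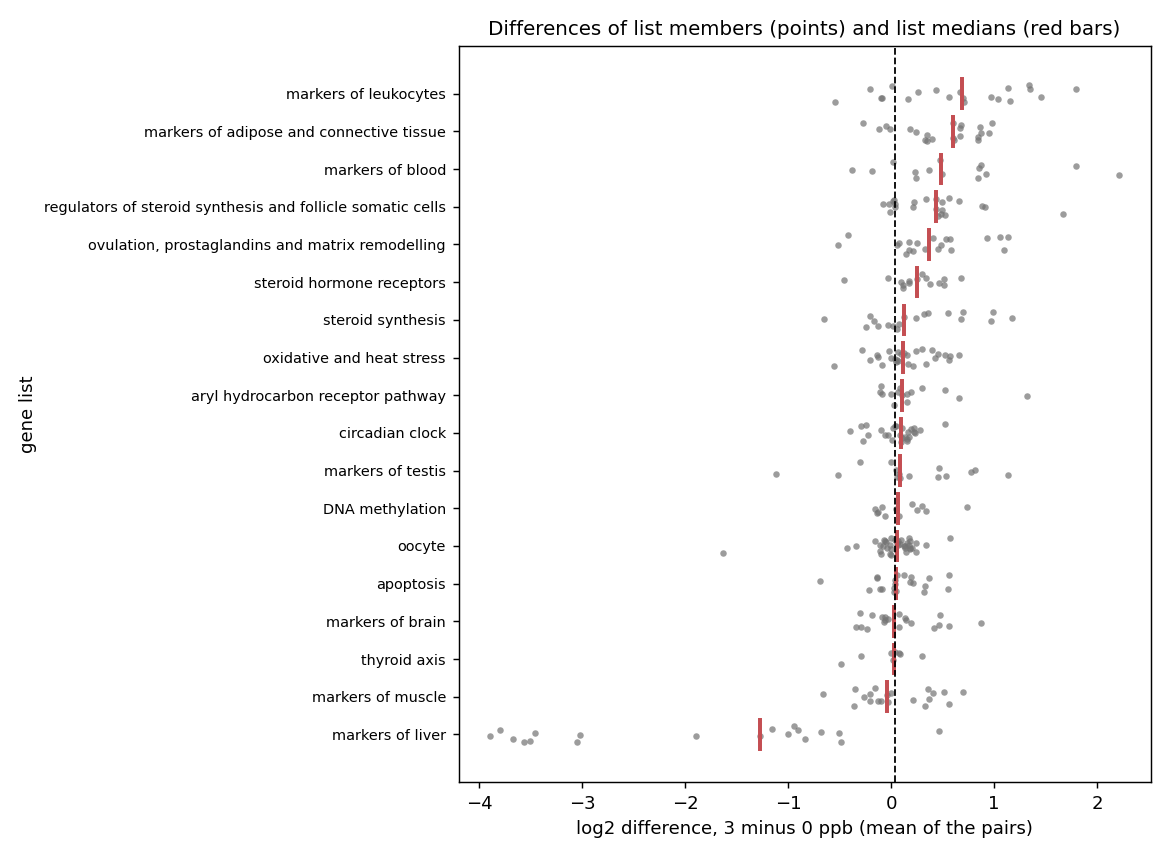
Log2 difference (3 minus 0 ppb, horizontal axis) of each member (points) of 18 gene lists (vertical axis, the 5 lists added after the values were seen left out), with the median of each list as a red bar and the median of all targets tested, 0.04, as a dashed line. Among the lists drawn, the leukocyte, connective tissue and red cell medians of 0.68, 0.60 and 0.49 lie farthest to the right and the liver median of -1.27 farthest to the left.

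The 30 ppb ovaries of the same slides were also compared directly with the 3 ppb ovaries. The 0.3 ppb arrays were not compared with other groups here and entered only the test and the fit over all 4 groups. Of 62023 targets tested between 3 and 30 ppb, 0 (0%) passed the adjusted test in limma, with a smallest adjusted p of 0.9999, and 653 (1.05%) were higher and 758 (1.22%) lower at 3 ppb at an unadjusted p. Between 30 ppb and the same control arrays 2 of 69478 targets (0.00288%) passed, and 2.94% were higher at an unadjusted p. Values of both doses were only set side by side. The leukocyte list had a median of 0.68 at 3 ppb and 0.20 at 30 ppb, and the connective tissue list 0.60 and 0.18. For c1qa the differences were 2.29 and 0.81, for c1qc 1.71 and 0.71, and for col1a2 0.88 and -0.03. They were nearer for cd74a, at 1.04 and 0.99, cd74b, at 1.16 and 0.92, and grna.2, at 1.34 and 0.98. These genes were named for their values at 3 ppb. The direct difference of c1qc between the doses was 1.00 ± 0.75 (SE). In the follicle group nr0b1 differed by 1.67 and 1.69 and insl3 by 1.14 and 1.57. The lower genes junbb and sycp1 differed by -2.2 and -2.70 and by -1.63 and -1.15. Both doses share their controls, and none of these genes differed between the doses in the adjusted test.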

How the data were processed

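RNA of whole ovaries was hybridized by the authors to one-color arrays and read with Agilent Feature Extraction 11.5, and the deposited values are the background-corrected intensity of each spot, beside detection and outlier marks. The authors then used GeneSpring, which does not enter these values.

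Intensity (floor 1) was put on the log2 scale, the 75th percentile of unmarked non-control spots was subtracted, marked spots were dropped, and spots and then probes were averaged. A probe stayed if detected over background on 4 or more of the 10 arrays (97595 of 128291), and a target needed 3 complete pairs, so that 63370 of 89208 targets were tested. The fit leaves out missing values, 0.767% of the total. limma 3.58.1 in R 4.3.3 (package data.table, version 1.17.8) fitted treatment with the replicate number as a block, with Benjamini-Hochberg adjustment over all targets, and a call needed an adjusted p of 0.05 and a difference of 1.5-fold. Figures were drawn with matplotlib 3.10.9 (Python 3.11.15, numpy 2.4.6, pandas 2.3.3). The number of arrays limits the precision, and if the tissues of a number were not independent, p-values measure only the spread between these samples.

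Pairing rests on the shared slide and on the methods, which define replicates as groups started on different days. Neither labels nor methods say that the number of an array marks a start day. Deviations from the group means correlated within numbers by 0.09, 0.27, 0.35, 0.66 and 0.32. Over the 20 combinations of different numbers the median was -0.26 and the maximum 0.57. Deviations sum to 0 within a group, so positive values within numbers push those between numbers below 0. The 2 sets of values are therefore not an independent contrast. Slides of replicates 2 to 6 were scanned in 3 sessions, each with both groups. Replicates 3 and 4 shared a session, as did replicates 5 and 6.

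Symbols came from matching unversioned accessions to the RefSeq GRCz12tu annotation, by which 13710 targets of the array had a symbol. Members and lists were chosen with earlier results of these data known. Named are the 10 higher and 10 lower symbols with the smallest p among those with 1 direction in 5 of 5 pairs and well above background on all arrays of a group, the 5 of largest difference each way, genes the study named, and up to 4 leading members of each list. A gene of this ranking is not reported here. Other genes named within lists, the 5 added lists and tagapb were chosen after their values were seen. Alternatives were other scalings, background correction, filters, blocks, array weights, probe summaries, replicate 1 and each replicate left out. Alternatives for 3 against 30 ppb were chosen after seeing the data.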

Additional observations from a re-analysis of the deposited data

Results flagged for a closer look

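In some groups of 5 arrays a single array stood far from the other 4, by a gap above 0.71 of the range of the group (Dixon's limit). This held for 8 of 196 gene groups (4.08%), and chance alone puts about 1 in 20 groups past this limit. At 3 ppb, zgc:136308 was at -3.56 in replicate 3 against -2.54 to -2.34 in the others, and tmtc2a at -4.38 in replicate 5 against -3.95 to -3.91. The synaptonemal gene syce2 was at -3.09 in replicate 6 against -1.33 to -0.68, and the carbonyl reductase cbr1l at 3.31 in the same array against 1.32 to 1.81. The histone gene h1-10 was at -0.99 in replicate 4 against -2.00 to -1.78. Among controls, uqcc2 was at 0.36 in replicate 2 against -1.33 to -1.09, junbb at 0.94 in replicate 4 against 2.2 to 2.5, and adcyap1a at -4.10 in replicate 5 against -6.26 to -5.74. The share of spots marked as outliers was 0.735% in control replicate 6 against 0.171% to 0.280%, and 10.4% in replicate 6 at 3 ppb against 0.253% to 2.70%. The part of that array in the values of syce2 and cbr1l was not tested beyond leaving it out.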

How the results depend on the processing

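The count of targets past the adjusted test was 0 under each alternative scaling, background correction, filter, block and array weighting, and ranged from 0 to 2 when 1 replicate was left out. The 2 appeared without replicate 2. Without adjustment 3456 targets passed with the fold threshold, and 105 by the methods' test over the 4 groups with Tukey's test. Between 3 and 30 ppb, 1411 passed without adjustment, and 0 with it when each replicate was left out. Without the replicate block 0 targets passed, and 1461 passed without adjustment, 76.2% of them higher. That share was 64.2% with the block, 82.7% for probes well above background on all arrays, 75.4% with no filter, 74.4% with a random block and 53.2% with replicate 1.

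Of 98 named genes, 54 were fitted under 16 alternatives and 44 under 15. In these fits 0 passed the adjusted test in limma, 84 kept their direction, and 14 had 41 values of the opposite sign. With replicate 1 these were mmp2 -0.22, tagln -0.28, igf3 -0.10, adcyap1r1a -0.047, lyz 0.46, gnrh2 -0.28, crhr2 -0.17 and adcyap1b 0.26. With normexp they were lyz 0.088, gnrh3 0.09, vip 0.17, adcyap1a 0.13, crhbp 0.11 and adcyap1b 0.10. With no filter they were vipr2 0.266, adcyap1a 0.17, crhbp 0.548 and adcyap1b 0.051. With the strictest filter they were hbba2 -0.060, crhr2 -0.38, crhbp 0.33 and adcyap1b 0.047. Quantile normalization gave crhr2 -0.21 and crhbp 0.0015, median scaling crhbp 0.11 and adcyap1b 0.12, the median over probes gnrh2 -0.061 and crhr2 -0.066, and array weights crhr2 -0.077. Leaving out 1 replicate, gnrh3 ranged from -0.55 to 0.056, vip from -0.83 to 0.18, gnrh2 from -0.076 to 0.15, adcyap1a from -0.67 to 0.28, crhr2 from -0.10 to 0.10, crhbp from -0.15 to 0.077 and adcyap1b from -0.10 to 0.051. Among lists with medians near 0, leaving out 1 replicate gave medians of -0.02 to 0.19 for the genes the study discussed, -0.08 to 0.10 for meiotic prophase, 0.07 to 0.24 for testis, -0.12 to 0.06 for muscle and -0.01 to 0.08 for brain. The cause was not tested. With 5 pairs and 1 array with few probes well above background, differences smaller than their SE were not resolved. In the main fit, larger ones did not pass the adjusted test either.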
